A study of Mus musculus with 7 samples.

Results

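Polycomb repressive complex 2 (PRC2) is the enzyme complex that methylates lysine 27 of histone H3 (H3K27) and thereby keeps genes silent. Its catalytic subunit is EZH2 or the related EZH1, which work only when bound to EED and SUZ12, and accessory proteins decide where on chromatin the complex acts. In CD4 T cells EZH2 is known for restraining the T helper 1 and 2 cytokine and lineage factor genes and for keeping activated regulatory T cells stable. EZH2 is the form typical of dividing cells, while EZH1 persists in resting cells.

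The 10 genes described here, Ezh2, Ezh1, Eed, Suz12, Aebp2, Jarid2, Mtf2, Phf19, Rbbp4 and Rbbp7, were taken by name from a count table of 15588 genes, and all 10 were present. All 10 also passed the filter on low counts. The table comes from RNA sequencing of CD4 T cells sorted from tumours of mice carrying an orthotopic transplant of hepatocellular carcinoma, that is, liver cancer placed in the liver. The model had been set up for 0 days in 2 libraries and for 7 days in 5 libraries. The labels name no strain, genotype, age, tumour line or drug, and they do not say what stood for tumour tissue on day 0 or whether animals were pooled. Whether each library is a separate animal is not stated, and the p-values therefore reflect the spread among these 7 libraries, which may be technical.

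Total counts ran from 21910818 to 28333855 per library. Libraries carry the last digit of their column in the table (2 and 3 on day 0; 1, 2, 3, 5 and 6 on day 7), since that digit and the title numbers do not match. T cell markers were high in every library. The 8 genes of the T cell list, Cd4 and Cd3e among them, summed to between 3556 and 3784 CPM (read counts normalised to library size) on day 0. On day 7 they summed to between 3634 and 4648 CPM. This sum covers T cells in general and cannot show that the cells were CD4 T cells. Cd4 alone was at 382 and 398 CPM on day 0. On day 7 it was between 476 and 593 CPM in libraries 1, 2 and 3, and at 909 and 944 CPM in libraries 5 and 6. Day 7 libraries 5 and 6 stood apart. Cd8a and Cd8b1, which mark CD8 T cells, summed to 204 and 177 CPM there and to between 2.29 and 18.3 CPM in the other libraries. The 9 myeloid markers summed to 250.1 and 147 CPM in those 2 libraries and to between 9.31 and 30.5 CPM elsewhere. The 7 NK cell markers summed to between 1104 and 1188 CPM on day 0 and to between 421 and 699 CPM on day 7, with Klra8 and Klra4 at 0 on day 0. Klrb1c, Klrc1 and Klre1 made up most of this sum, at 624, 371 and 102 CPM in day 0 library 2. The 6 hepatocyte markers summed to between 11.8 and 17.8 CPM on day 0, to between 38.3 and 42.7 CPM in day 7 libraries 1, 2 and 3, and to 7.61 and 3.97 CPM in libraries 5 and 6. The endothelial and stromal list (5 of 6 in the table) summed to between 68.6 and 109 CPM on day 0 and to between 82.2 and 179 CPM on day 7. Most of each sum was Pecam1, at 60.9 and 104 CPM on day 0 and between 70.3 and 171 CPM on day 7. Ttr, Serpina1a, Cdh5 and Stab2 were at 0 on day 0. The part of other cells in the results below was not tested, and in sorted bulk cells fewer cells of a type and less RNA per cell cannot be told apart.

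The promoters of both catalytic genes and of Rbbp7 are shown because Ezh2 and Ezh1 encode alternative forms of the same enzyme yet had different values across the days, and because Rbbp7 was among the members whose day 7 libraries all lay above day 0. The sequences are RefSeq's, on mouse build GRCm38.p6, from 120 bases before to 20 bases after the annotated start. Capitals mark 2 motifs searched on both strands, the E2F motif (TTTGGCGC, TTTCGCGC or GGCGGGAA) and the CCAAT box (CCAAT, read as ATTGG on the other strand), and no 2 marked matches overlap. The Ezh2 stretch is chr6:47595011-47595150 on the minus strand, that of Ezh1 chr11:101226444-101226583 on the minus strand, and that of Rbbp7 chrX:162760252-162760391 on the plus strand.
Ezh2: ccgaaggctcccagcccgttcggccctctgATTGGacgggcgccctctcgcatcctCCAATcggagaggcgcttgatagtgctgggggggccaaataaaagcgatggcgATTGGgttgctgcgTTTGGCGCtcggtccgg
Ezh1: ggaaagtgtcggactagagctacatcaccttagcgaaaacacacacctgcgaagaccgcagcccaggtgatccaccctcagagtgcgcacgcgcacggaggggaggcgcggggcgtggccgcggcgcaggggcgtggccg
Rbbp7: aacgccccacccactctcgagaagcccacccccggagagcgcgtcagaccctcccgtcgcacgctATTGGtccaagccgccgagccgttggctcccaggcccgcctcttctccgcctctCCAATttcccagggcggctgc
Across the whole 300-base windows, Ezh2 had 1 E2F match, TTTGGCGC at position 4 from the start, and CCAAT boxes at -90, -64 and -11. Ezh1 had neither motif. CCAAT also lay in windows of Aebp2 and Jarid2, and in those of Mtf2, Eed, Suz12 and Rbbp4, whose day 0 and day 7 libraries overlapped. The E2F motif was in 1 of the 14 windows annotated for the 10 genes and in 2.96% of all 32851 windows, and CCAAT in 9 of the 14 and in 37.4% of all. Counted by gene, 7 of 26 cell division genes with a window had an E2F match, as did 3.39% of all 27025 genes. The cell cycle element TTTGAA, also searched, was in 4 of the 14 and in 17.9% of all. These are matches of letters only, and a window without a match says nothing of the factor.

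Of the 10 PRC2 genes, Aebp2 rose from day 0 to day 7 and the other 9 did not pass the test. A positive log2 change was seen for 8 of the 10, Mtf2 at 0.03 among them, and for 53.1% of the 12929 genes that entered the test. The median was 0.45 over the 10, beside 0.04 over all tested genes. Under edgeR's quasi-likelihood fit, adjusted by Benjamini-Hochberg over all of them, 1 member rose (10% of members, against 1.07% of all genes tested) and 0 fell. DESeq2 called 3 members higher and 0 lower, against 5.08% and 1.54% of the genes to which it gave an adjusted p. With limma-voom 0 were called in either direction, against 0.24% of all genes higher and 0.495% lower. At an unadjusted p below 0.05, 4 members were higher, against 6.29% of all genes, and 0 were lower. For 4 members (Ezh2, Aebp2, Jarid2 and Rbbp7) every day 7 library lay above both day 0 libraries, which was so for 7.53% of all tested genes. Without day 7 libraries 5 and 6 it was so for 7 members, against 13.5% of all tested genes, while 0 members passed the test (0.975% of all genes tested there were called higher and 0.884% lower). There the log2 changes of Suz12, Rbbp7 and Rbbp4 were 0.52, 0.45 and 0.23, and those of Ezh1, Eed and Mtf2 -0.16, 0.0057 and 0.011.

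**Figure D1:**
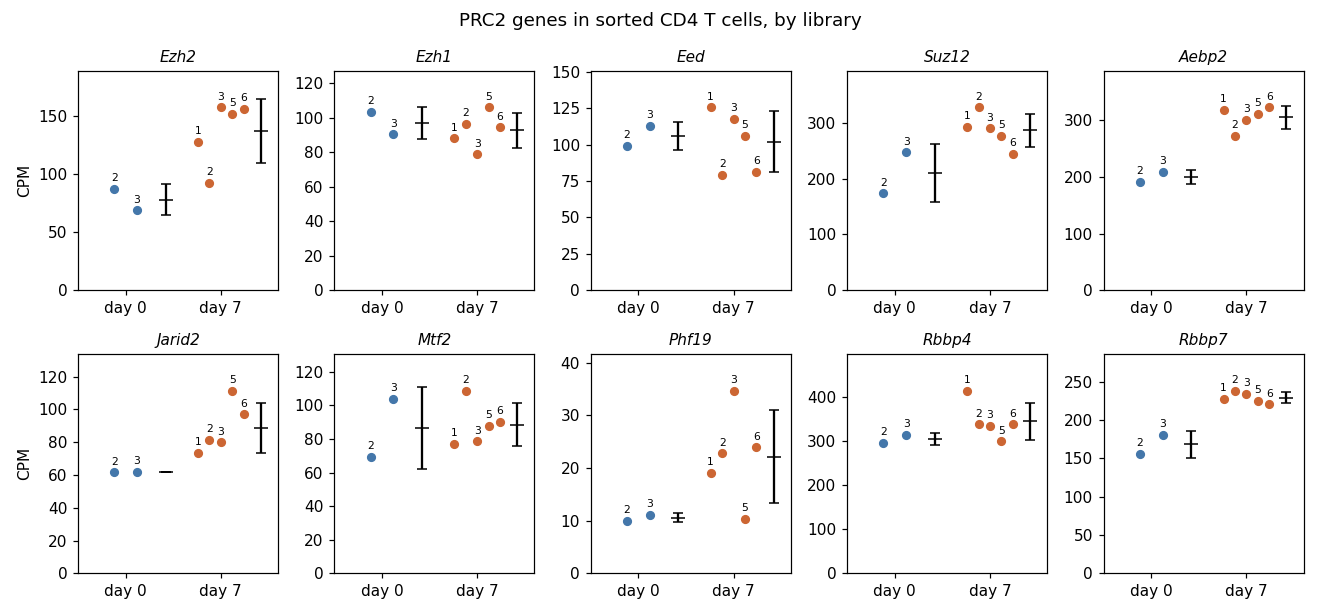
Each panel plots the CPM of 1 PRC2 gene in 2 day 0 (blue) and 5 day 7 (orange) libraries, numbered by library; black marks are the group mean ± SD, and each vertical axis starts at 0. The groups separate for Ezh2, Aebp2, Jarid2 and Rbbp7 and overlap for the other 6 genes.

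Of the catalytic subunits, Ezh2 stood higher in every day 7 library and Ezh1 did not. Ezh2 (Entrez 14056), the main H3K27 methyltransferase, measured 87.4 and 68.6 CPM on day 0 (libraries 2 and 3, the order kept below) and 128, 92.6, 157, 152 and 156 CPM on day 7 (libraries 1, 2, 3, 5 and 6). All day 7 libraries were above day 0, but library 2 was close to it and the other 4 well above. The mean went from 78.0 ± 13.3 (SD, n = 2) to 137 ± 27.7 CPM (n = 5), a log2 change of 0.82 ± 0.24 (SE), which missed the threshold (edgeR adjusted p = 0.0981). It passed without day 7 library 2 (edgeR adjusted p = 0.0475), with DESeq2 (adjusted p = 0.00761) and with no filter on low counts (adjusted p = 0.0227). Without day 7 libraries 5 and 6 the log2 change was 0.68 (edgeR adjusted p = 0.281). Ezh1 (Entrez 14055), the paralogue with weaker methyltransferase activity, was at 104 and 90.3 CPM on day 0 and at 88.1, 96.5, 78.8, 106 and 94.4 CPM on day 7. The groups overlapped, with 1 day 7 library above and 2 below both day 0 libraries. Its log2 change was -0.06, with a 95% interval from -0.53 to 0.40 (edgeR adjusted p = 0.9998).

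Set per length, Ezh2 stood above Ezh1 on both days, and by more on day 7. In CPM without the length, Ezh1 was the higher in both day 0 libraries and in day 7 library 2. The order there thus rests on the annotated exon lengths, 2802 bases for Ezh2 and 6081 for Ezh1. Those lengths may differ from the transcripts in these cells. In CPM per kilobase of merged exons, with lengths from GENCODE M21, the Ezh2 to Ezh1 ratio was 1.83 and 1.65 on day 0. On day 7 it was 3.15, 2.08, 4.34, 3.11 and 3.59 in libraries 1, 2, 3, 5 and 6. Every day 7 ratio was above both day 0 ratios, with library 2 the nearest to them. Ezh2 thus made up 63.5% ± 1.71 (SD, n = 2) of the summed Ezh1 and Ezh2 level on day 0 and 75.7% ± 5.09 (n = 5) on day 7, a description of a pair picked from the 10 and without a test. The sum of both went from 43.8 ± 6.28 to 64.2 ± 9.77 CPM per kilobase.

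The core partners differed from each other. Eed (Entrez 13626), the subunit that reads the H3K27 methyl mark and stimulates the enzyme, was at 99.0 and 113 CPM on day 0 and at 126, 79.1, 118, 106 and 81.4 CPM on day 7. On day 7, 2 libraries were above and 2 below the day 0 values. The log2 change was -0.06, with a 95% interval from -0.54 to 0.43. Suz12 (Entrez 52615), the scaffold that holds the complex together, was at 174 and 247 CPM on day 0 and at 293, 328, 290.4, 277 and 245 CPM on day 7. Day 0 library 2 was the lowest, and day 7 library 6 lay just under day 0 library 3, so the groups overlapped. Its log2 change of 0.45 ± 0.17 did not pass (edgeR adjusted p = 0.280). Leaving out day 0 library 2 lowered it to 0.22, and leaving out day 0 library 3 raised it to 0.73.

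The histone-binding subunits are RBBP4 and RBBP7, closely similar proteins that PRC2 shares with histone deacetylase complexes. Rbbp7 (Entrez 245688) was at 156 and 181 CPM on day 0 and at 228, 239, 234, 226 and 221 CPM on day 7. It was the steadiest member within day 7, with a coefficient of variation of 3.07%, and its groups did not overlap. The log2 change of 0.44 ± 0.16 did not pass (edgeR adjusted p = 0.258), while DESeq2 called it higher (adjusted p = 0.0147). Rbbp4 (Entrez 19646) was at 295 and 314 CPM on day 0 and at 414, 338, 334, 299.7 and 338 CPM on day 7. Library 5 lay between the day 0 values and the other day 7 libraries above them. Its log2 change was 0.18, with a 95% interval from -0.13 to 0.48 (edgeR adjusted p = 0.766).

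Of the accessory proteins of the PRC2.2 form, Aebp2 rose and Jarid2 did not pass. Aebp2 (Entrez 11569), a zinc finger protein that binds SUZ12 and stimulates the enzyme, was at 191 and 209 CPM on day 0 and at 319, 272, 301, 311 and 323 CPM on day 7. The lowest day 7 library, library 2, was well above both day 0 values. The mean rose from 200.02 ± 12.8 to 305 ± 20.1 CPM, a log2 change of 0.61 ± 0.15 (edgeR adjusted p = 0.0372). The call depended on single libraries and on the tool. It ended without any 1 of 5 libraries (both day 0 libraries and day 7 libraries 1, 3 and 5, edgeR adjusted p from 0.0668 to 0.402), with limma-voom (adjusted p = 0.0861) and without day 7 libraries 5 and 6 together (edgeR adjusted p = 0.0569). The log2 change stayed between 0.52 and 0.68 over all 16 alternatives. Jarid2 (Entrez 16468), which recruits PRC2 to chromatin and lacks the demethylase activity of its family, was at 61.6 and 61.9 CPM on day 0 and at 73.5, 81.4, 79.9, 111 and 97.0 CPM on day 7. All day 7 libraries were above day 0, and libraries 5 and 6, the pair with the CD8 and myeloid RNA, were the highest. The log2 change of 0.52 ± 0.26 did not pass (edgeR adjusted p = 0.502) and was 0.33 without those libraries.

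The accessory proteins of the PRC2.1 form are Polycomb-like proteins that bind DNA rich in CpG. Mtf2 (Entrez 17765) was at 69.4 and 104 CPM on day 0 and at 77.2, 109, 78.6, 87.9 and 90.2 CPM on day 7, so 4 of the 5 day 7 libraries lay between the day 0 values. Its log2 change was 0.03, with a 95% interval from -0.48 to 0.54. Phf19 (Entrez 74016) had the largest log2 change of the 10 genes and the widest spread. It was at 10.02 and 11.2 CPM on day 0 and at 19.1, 22.8, 34.7, 10.4 and 23.95 CPM on day 7. On day 7, 4 libraries were above both day 0 values and library 5 was level with them. The log2 change of 1.07 ± 0.58 did not pass (edgeR adjusted p = 0.586) and was 1.25 without libraries 5 and 6. The summed Aebp2 and Jarid2 level, in CPM per kilobase, was 1.47 ± 0.312 times that of Mtf2 and Phf19 on day 0 and 1.90 ± 0.342 times on day 7, with overlapping libraries.

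**Figure D2:**
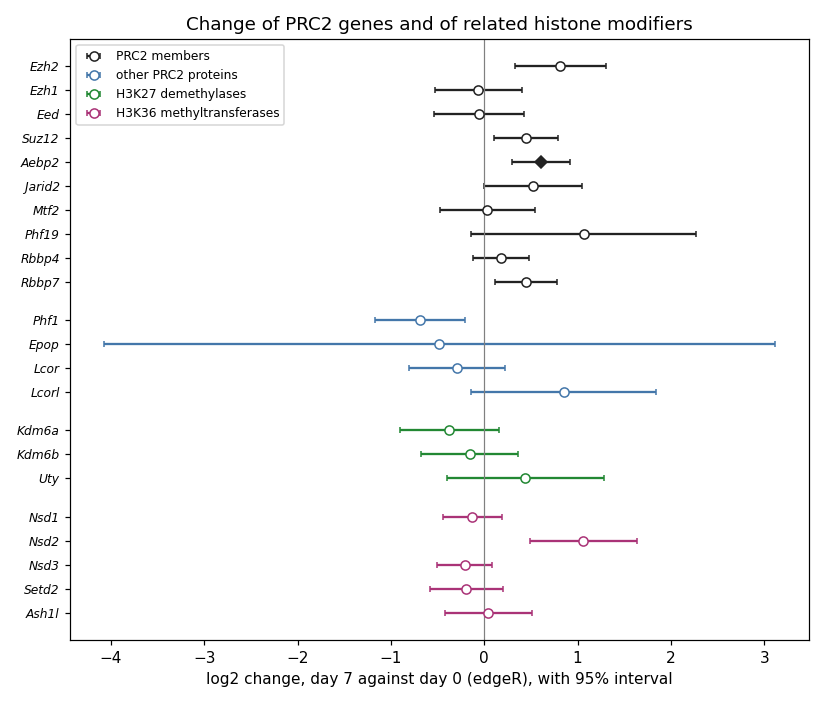
Points are edgeR log2 changes, day 7 against day 0, with 95% intervals, for PRC2 members and 3 related gene lists; the filled diamond marks an adjusted p below 0.05 and open circles the rest. Aebp2 is the single filled point, the intervals of Ezh1, Eed and Mtf2 centre near 0, and that of Epop is the widest.

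Per length, the order of the members was nearly the same on both days. On day 0 the levels in CPM per kilobase were Rbbp7 at 72.0, Rbbp4 at 69.2, Eed at 51.2, Suz12 at 48.1, Ezh2 at 27.8, Aebp2 at 24.5, Mtf2 at 21.3, Ezh1 at 15.9, Jarid2 at 10.03 and Phf19 at 2.83. The libraries of Rbbp7 and Rbbp4, of Eed and Suz12, of Ezh2 and Aebp2, and of Aebp2 and Mtf2 overlapped, so these neighbours did not differ beyond their spread. On day 7 Suz12 at 65.6 stood above Eed at 49.3, and Ezh2 at 49.0 stood level with Eed. On day 7 the libraries of Rbbp4 and Suz12, Suz12 and Eed, Eed and Ezh2, Ezh2 and Aebp2, and Ezh1 and Jarid2 overlapped. These levels rest on annotated exon lengths, which may differ from the transcripts in these cells.

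Other members of the PRC2 family were tested beside the 10. Of 4 tested accessory genes 0 passed with edgeR or limma-voom. At an unadjusted p below 0.05, 1 was lower, as were 489 of all 12929 tested genes. DESeq2 called 1 lower, against 1.54% of the genes to which it gave an adjusted p. The list's median log2 change was -0.39. Phf1, another Polycomb-like gene, was at 121 and 120.3 CPM on day 0 and at 60.0, 66.9, 80.7, 76.6 and 89.7 CPM on day 7. All day 7 libraries were below day 0, and the log2 change was -0.69 ± 0.23 (edgeR adjusted p = 0.194, and 0.0227 with DESeq2). Lcor, a locus that also encodes the accessory protein PALI1, and its relative Lcorl had log2 changes of -0.29 and 0.85 with overlapping groups. Epop, an elongin-binding accessory protein, had a log2 change of -0.48 with a 95% interval from -4.07 to 3.11, and its day 0 values were 19.3 and 0.0357 CPM.

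Enzymes that remove or oppose the PRC2 mark showed 0 calls with edgeR. Of the 3 H3K27 demethylase genes 0 were called by edgeR, DESeq2 or limma-voom and 0 had an unadjusted p below 0.05; the list's median log2 change was -0.16. Kdm6a went from 95.1 ± 7.35 to 73.2 ± 16.4 CPM, Kdm6b from 98.0 ± 16.2 to 88.0 ± 21.6 CPM, and the Y-linked Uty from 35.8 ± 21.99 to 48.6 ± 16.7 CPM, each with overlapping groups. Among 5 genes for methyltransferases of H3K36, a mark that hinders PRC2, 0 passed with edgeR or limma-voom, and the median log2 change was -0.13. At an unadjusted p below 0.05, 1 was higher, against 6.29% of all tested genes. DESeq2 called the same gene higher, against 5.08% of the genes to which it gave an adjusted p. That gene was Nsd2, which writes the dimethyl form. It was at 46.5 and 116 CPM on day 0 and at 145, 157, 170.0, 192 and 185 CPM on day 7, with no overlap. Its log2 change of 1.06 ± 0.27 missed the threshold (edgeR adjusted p = 0.0622). Leaving out day 0 library 2 gave 0.55, and leaving out day 0 library 3 gave 1.88, which passed (edgeR adjusted p = 3.06e-05). Nsd1, Nsd3, Setd2 and Ash1l had log2 changes of -0.13, -0.21, -0.19 and 0.04.

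The partner Polycomb complexes had medians near that of all genes. PRC1 places ubiquitin on histone H2A and binds the PRC2 mark. Of its 21 tested subunit genes, 0 were called by edgeR, DESeq2 or limma-voom and 0 had an unadjusted p below 0.05, and the median log2 change was 0.02. The complex that removes this ubiquitin, built around BAP1, had 9 tested genes with a median of 0.00, of which 0 were called by any of those tools. At an unadjusted p below 0.05, 1 of the 9 was lower, as were 489 of all 12929 tested genes.

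Cell division transcripts rose beside these values. Of 30 cell division genes 22 rose and 0 fell with edgeR, beside the 1.07% of all genes called higher; all 30 had a positive log2 change, and the median was 1.72. With limma-voom 9 of the 30 were called higher, with DESeq2 28, and with edgeR without day 7 libraries 5 and 6, 20. Over all genes those 3 settings called 0.24%, 5.08% and 0.975% higher. Top2a, a topoisomerase of dividing cells, rose from 118 ± 19.4 to 471 ± 87.8 CPM, Rrm2, a subunit of ribonucleotide reductase, from 28.03 ± 10.1 to 139.6 ± 16.8 CPM, and Uhrf1, which copies DNA methylation at replication forks, from 12.4 ± 6.92 to 95.4 ± 16.2 CPM. The mean of log2(CPM + 1) over the 30 genes was 4.80 and 4.91 on day 0 and between 6.35 and 6.85 on day 7, highest in libraries 5 and 6. Over the 10 PRC2 genes it was 6.59 and 6.72 on day 0 and between 7.00 and 7.10 on day 7, highest in library 3. How far the PRC2 values follow the share of dividing cells was not tested.

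Some E2F factors are known to drive transcription of EZH2 and EED in dividing human cells, and the list used here was not limited to those. Of its 11 genes for E2F factors of any kind and for their pocket protein partners, 0 passed with edgeR or limma-voom. At an unadjusted p below 0.05, 5 were higher and 1 lower, against 6.29% of all genes higher and 489 of 12929 lower. DESeq2 called 5 higher and 1 lower, against 5.08% and 1.54% of the genes to which it gave an adjusted p. The median log2 change was 0.87, beside 0.04 over all tested genes. The 4 named next were picked after their values were seen. E2f2 went from 12.4 ± 0.917 to 74.9 ± 45.998 CPM, with day 7 libraries 5 and 6 the highest (121 and 129 CPM, against 37.3 to 49.4 CPM in libraries 1, 2 and 3), and E2f8 from 6.90 ± 3.06 to 31.6 ± 12.9 CPM (edgeR adjusted p = 0.0605 and 0.0587). Rbl1, the pocket protein p107 of cycling cells, went from 71.1 ± 36.2 to 139.6 ± 19.4 CPM and Rbl2, the p130 of resting cells, from 524 ± 59.7 to 392 ± 45.7 CPM (edgeR adjusted p = 0.0541 and 0.167).

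**Figure D3:**
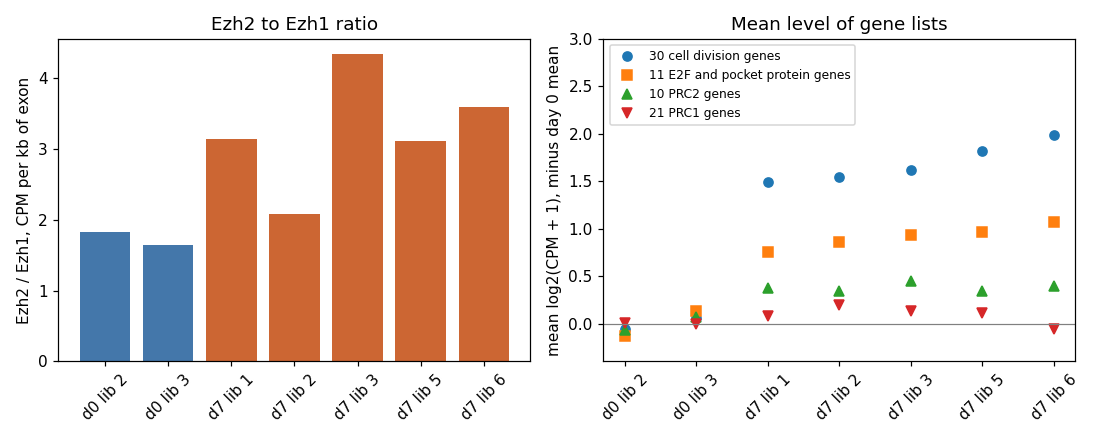
Left, bars give the ratio of Ezh2 to Ezh1 in CPM per kilobase of exon for each library, from 1.65 to 1.83 on day 0 (blue) and from 2.08 to 4.34 on day 7 (orange). Right, points give the mean log2(CPM + 1) of 4 gene lists in each library after subtracting the day 0 mean of the list; cell division genes lie highest on day 7, E2F and pocket protein genes next, then PRC2 genes, and PRC1 genes nearest 0.

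Among genes known as PRC2 targets, Zbtb16 and Tbx21 fell. Of 12 tested genes on a list of T cell and general Polycomb targets, 2 fell and 0 rose with edgeR (0.472% of all genes tested fell), with a median log2 change of -0.24. DESeq2 called the same 2 lower and Eomes higher, limma-voom called Zbtb16 and Ifng lower, and edgeR without day 7 libraries 5 and 6 called Zbtb16, Tbx21 and Ifng lower. Over all genes those 3 settings called 1.54%, 0.495% and 0.884% lower, and DESeq2 called 5.08% higher. Zbtb16, which encodes PLZF, the lineage factor of innate-like T cells, fell from 213 ± 5.89 to 103 ± 29.8 CPM (edgeR adjusted p = 0.0171). Leaving out day 0 library 3 or day 7 library 5 ended this call (edgeR adjusted p = 0.0702 without day 7 library 5). A block on the column digit also ended it (edgeR adjusted p = 0.260). Tbx21, the gene of the T helper 1 factor T-bet, fell from 309 ± 34.3 to 203 ± 22.4 CPM (edgeR adjusted p = 0.0491). The Tbx21 call ended when any 1 library other than day 7 library 6 was left out. It also ended with limma-voom (adjusted p = 0.0792), RLE factors, library sizes alone, a minimum mean of 5 CPM or a block on the column digit. Ifng and Eomes were picked after their values were seen. Ifng went from 409 ± 104 to 196 ± 68.3 CPM and Eomes from 5.72 ± 1.38 to 20.7 ± 6.01 CPM, and neither passed (edgeR adjusted p = 0.276 and 0.230), although limma-voom called Ifng lower (adjusted p = 0.0248), as edgeR did without day 7 libraries 5 and 6 (adjusted p = 0.000369), and DESeq2 called Eomes higher (adjusted p = 0.00486). Cdkn2a, the best known Polycomb target in dividing cells, was at 1.41 CPM on day 0 and 1.02 CPM on day 7, a level too low to compare. The NK cell marker sum, which includes Eomes, was lower on day 7, with Klrc1 and Klre1 among its 7 genes called lower. Klrb1c also had lower CPM in every day 7 library. The rest of the list did not fall. Eomes was higher in every day 7 library, and Klra8 and Klra4 were at 0 on day 0. Ncr1 was at 0.0411 and 6.56 CPM on day 0 and between 4.06 and 16.2 CPM on day 7. The part of NK cells, or of innate-like T cells that carry such receptors, in the values of Zbtb16, Tbx21 and Ifng was not tested.

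The genes whose profiles were most like that of Ezh2 were found among 7028 other protein-coding genes of at least 20 CPM, by the root mean square difference of centred log2(CPM + 1) over the 7 libraries. They were Dap (0.128), Chst12 (0.160), Nfyc (0.161), Bsg (0.165) and Hsd11b1 (0.168), against a median of 0.552 over all candidates, and none of the 5 was called by edgeR. Dap, picked for this likeness, was like Ezh2 lowest on day 0 (73.6 and 60.9 CPM). Its lowest day 7 value, 87.1 CPM, was also in library 2. These shared features and the small distances of the 5 genes follow from the way they were picked. Of the other 9 PRC2 members Aebp2 (0.244) and Jarid2 (0.282) were nearest to Ezh2 and Mtf2 (0.552) farthest. Those most like Ezh1 were Trp53i11 (0.0451), Sfpq (0.0563), Snrpg (0.0575), Luc7l2 (0.0582) and Zc3h14 (0.0611), against a median of 0.350. They were flat profiles with log2 changes between -0.15 and -0.01.

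**Figure D4:**
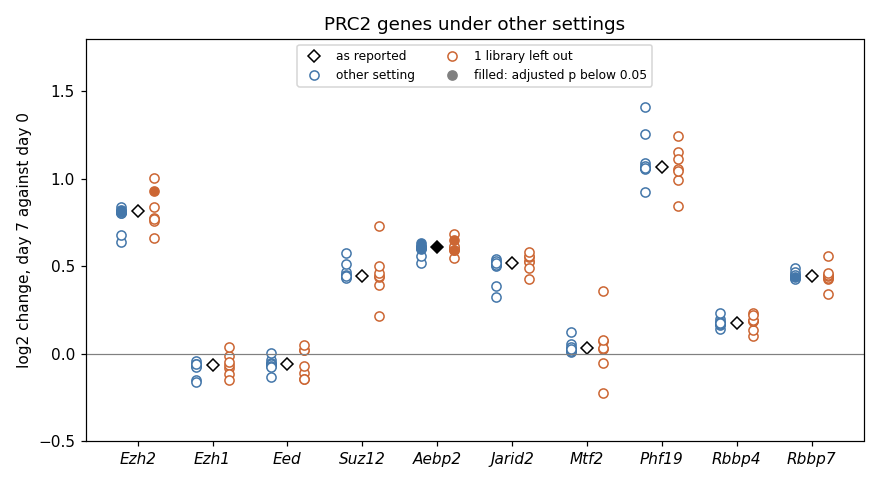
For each PRC2 gene, the black diamond is the reported log2 change, day 7 against day 0, blue circles are 9 other settings and orange circles 7 fits with 1 library left out; filled marks have an adjusted p below 0.05. Filled marks appear for Ezh2, Aebp2 and Rbbp7, and the values of Ezh1, Eed and Mtf2 fall on both sides of 0.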

How the data were processed

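The authors deposited raw read counts in a table of genes by libraries. HISAT2 2.0.5, featureCounts 1.5.0-p3 and CASAVA 1.8 appear in the submitters' processing notes. The sources used here do not give the build, the annotation, the strand setting or the handling of reads that map to several places. Counts of close paralogues (Rbbp4 and Rbbp7) and of overlapping genes are therefore uncertain. Between 72.4% and 78.1% of the counts from 2 to 200 were even numbers. No source used here says whether both reads of a pair were counted, and a library may therefore hold fewer sequenced fragments than counts. Columns were assigned to a day by name, none to a single sample.

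After filterByExpr, 12929 genes entered edgeR 4.0.16 (R 4.3.3), with TMM factors between 0.988 and 1.01 and robust glmQLFit and glmQLFTest. Adjusted p-values (Benjamini-Hochberg over those genes) were held against 0.05. CPM of genes use TMM factors, and marker sums use total counts. A standard error is the log2 change over the square root of its F value, and 95% intervals use the t distribution. Alternatives used RLE, upper-quartile or no factors, other filters on low counts (none, or a mean of at least 5 CPM), DESeq2 1.42.0, limma-voom (limma 3.58.1), a block on the column digit and fewer libraries. The members, lists and tests were chosen with earlier results of these data known. Named were all 10 members, every tested gene of the 3 small lists, up to 3 called genes per direction of the others and 5 genes most like Ezh2 and Ezh1; the marker genes, Cdkn2a and genes marked so were named besides. Protein sequences were not used here. A further marker list is not reported here.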

Additional observations from a re-analysis of the deposited data

How the results depend on the processing

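The sign of 7 members (Ezh2, Suz12, Aebp2, Jarid2, Phf19, Rbbp4 and Rbbp7) was positive in all 16 alternatives. No member's sign changed with the scaling factors. The number of PRC2 members called higher was 3 with DESeq2, 2 with no filter on low counts, 0 with limma-voom, 0 without day 7 libraries 5 and 6 (a setting added once the data had been seen), and from 0 to 2 with 1 library left out. None was called lower in any alternative. Genes called over all were 634 higher and 192 lower with DESeq2, 249 and 126 with no filter, 31 higher with limma-voom, 107 lower without day 7 libraries 5 and 6, and from 87 to 153 higher and 30 to 59 lower with 1 library left out. Cell division genes called were 9 with limma-voom. E2F and pocket protein genes called higher were 5 with DESeq2 (and 1 lower), 4 with no filter, 1 with library sizes alone, 1 with a mean of at least 5 CPM, and from 0 to 2 with 1 library left out. PRC2 targets called lower were 1 with RLE factors, library sizes alone or a mean of at least 5 CPM, and from 0 to 2 with 1 library left out; DESeq2 called 1 higher. H3K36 methyltransferases called higher were 1 with DESeq2 or with no filter and from 0 to 1 with 1 library left out. DESeq2 called 1 other PRC2 gene lower.

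Signs turned for 3 members and for 6 other named genes. With 1 library left out the log2 change ran from -0.15 to 0.042 for Ezh1, from -0.14 to 0.050 for Eed, from -0.23 to 0.36 for Mtf2, from -1.47 to 7.42 for Epop, from -0.55 to 0.028 for Lcor, from -0.31 to 0.032 for Kdm6b, from -0.072 to 1.26 for Uty, from -0.38 to 0.041 for Setd2 and from -0.17 to 0.31 for Ash1l. That of Epop was 1.51 with limma-voom and 0.046 without day 7 libraries 5 and 6, where that of Eed was 0.0057. The causes were not tested. A fit without a day 0 library leaves 1 there, assumed to vary like the others; it tests more genes, whose median log2 change was 0.18, against 0.11 with no filter. No label ties a day 0 library to a day 7 library, and the title numbers and column digits differ. Column digits 2 and 3 occur on both days. Their deviations from the day's mean had a Pearson r across 12929 genes of -0.0049 for digit 2 and -0.0013 for digit 3. The deviations of the 2 day 0 libraries mirror each other, so both values rest on the same day 0 difference. They cannot show whether libraries are paired. A replicate block on the digit, added once the data had been seen, left 0 members called and gave Epop 2.77. Over all it called 40 genes higher, with 7 cell division genes higher and 1 PRC2 target lower, which was neither Zbtb16 nor Tbx21. Digits 1, 5 and 6 occur only on day 7, so in that fit the day effect rests on the libraries with digits 2 and 3. The fewest counts of any member were 241, for Phf19 in day 0 library 2, and fragments may be fewer than counts.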
